A study of Drosophila melanogaster with 24 samples.

Results

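The genes described here encode the subunits of the vacuolar H+-ATPase (V-ATPase), taken as every gene whose symbol begins with Vha. They were 31 genes of 12799 with a named probe, read by 81 of 29872 named probes on an Agilent expression array. V1 subunits made up 11 of them, V0 subunits 18 and accessory subunits 2. Vha68-1 and Vha68-2, the other genes of the catalytic A subunit, were not analysed here.

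The V-ATPase is a rotary proton pump. Its cytosolic V1 sector hydrolyses ATP and turns a ring of proteolipids in the membrane-embedded V0 sector, which moves protons into lysosomes, endosomes and secretory vesicles, or out of the cell in specialised epithelia. In flies several subunits exist as paralogues, of which one is generally used in most tissues and the others are restricted, often to the adult testis, and in insect gut and Malpighian tubule the pump also energises ion transport.

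The study compared the transcriptomes of whole Drosophila animals lacking or overproducing Manf, a secreted protein of the endoplasmic reticulum with neurotrophic activity. All flies had a w- background and were kept at 25 degrees, and animals were picked by genotype and pooled. The labels gave 4 samples in each of 6 groups, 24 in all. Wild type animals (Wmix, a cross of white-eyed stocks) were taken as late stage 17 embryos whose tracheae were filling with air and as larvae at 29 to 45 h after egg laying. The mz mutant embryos (MANFmzdelta96) lacked both maternal and zygotic Manf (allele delta96, from mothers with germ line clones) and were taken at late stage 17, at 21 to 24 h. Paternally rescued embryos had mutant mothers but a functional paternal copy, and were taken at the same stage as wild type embryos. Mutant larvae were zygotic delta96 mutants that still received maternal Manf, at 29 to 50 h. Overexpressing larvae (69B>MANF) carried UAS-Manf under 69B-GAL4, an enhancer trap active in epidermis and some other tissues but not in the fat body, at 29 to 44 h.

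Values are deposited log2 intensities, and 2 overexpressing larval samples, numbers 69 and 70, were left out because they stood apart from all others, with correlations of 0.37 to 0.44 over all probes against 0.89 to 0.99 among the other 22. Every wild type larval sample was labelled with Cy3 and no mutant or overexpressing larval sample was, so dye and genotype cannot be told apart in larvae. Sample numbers fell into a low series (1 to 4) and a high series (63 to 88), and 18.7% of all genes differed between the series at an adjusted p below 0.01. Manf itself was read by 2 probes. On the brighter probe it measured 11.10 to 11.48 in wild type embryos, 9.14 to 11.29 in mz mutants, 10.52 to 10.91 in rescued embryos, 11.59 to 13.64 in wild type larvae, 10.46 to 13.50 in mutant larvae, and 14.23 and 14.40 in overexpressing larvae. On that probe the library labelled mz mutant embryo 1 (11.29) read Manf inside the wild type range of its stage. So did the libraries labelled mutant larva 65 (12.48) and 66 (13.50). Larva 65 was below both wild type larvae of its own number series (13.18 and 13.64). On the other probe mz mutant embryo 1 measured 10.59, below all 4 wild type embryos (10.67 to 11.23). Mutant larvae 65 and 66 (11.82 and 13.06) stayed within the wild type larval range there (11.23 to 13.09). Below, inside the wild type range refers to the brighter probe. Whether the probes lie in the deleted part of the gene was not known, so they are no firm test of the labels, and results that rest on these libraries are also given without them.

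The 31 genes fell into 3 ranges of the scale. In 13 of them the brightest probe reached the top of the scale in at least 1 of the 22 samples. Most of these were the single or main genes of their subunits. In V1 they were Vha55 (B, the partner of the catalytic subunit), Vha44 (C), Vha36-1 (D, part of the central stalk) and Vha14-1 (F). Also in V1 were Vha26 (E) and Vha13 (G), which form the outer stalks, and VhaSFD (H, a regulatory subunit). In V0 they were Vha100-2 (a), Vha16-1 (c, the proteolipid of the ring), VhaPPA1-1 (c'') and VhaM9.7-b (e), beside the accessory subunit VhaAC45. Vha100-4, another a subunit gene, was among the 13 through 1 sample only (mean 13.03). Another 8 had a mean below 7.38, the limit of the dimmest 33.3% of probes, namely Vha68-3, Vha36-2, Vha100-3, Vha16-2, Vha16-3, Vha16-4, Vha16-5 and VhaAC39-2. The remaining 10 lay between.

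Differences were hard to measure at both ends of the scale. At the top, many probes shared 1 highest value within a sample. In 19 of the 22 samples between 3 and 1576 probes were tied there, and in the other 3 a single probe was highest. The tied probes included 12 V-ATPase genes in wild type embryo 83 and 8 in the library labelled mutant larva 66. The highest value fell as more probes were tied, from 15.56 with 1 probe to 14.75 with 1576. A tied value does not separate the probes that share it, and their own levels could lie above or below it. The 13 bright genes also moved together in some samples, since their median was 13.41 in wild type embryo 82 and 13.71 in mz mutant embryo 4 against 14.39 to 15.08 in the other 20 samples. At the bottom, the 8 dim genes measured between 6.57 and 7.89 in every one of the 22 samples.

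**Figure D1:**
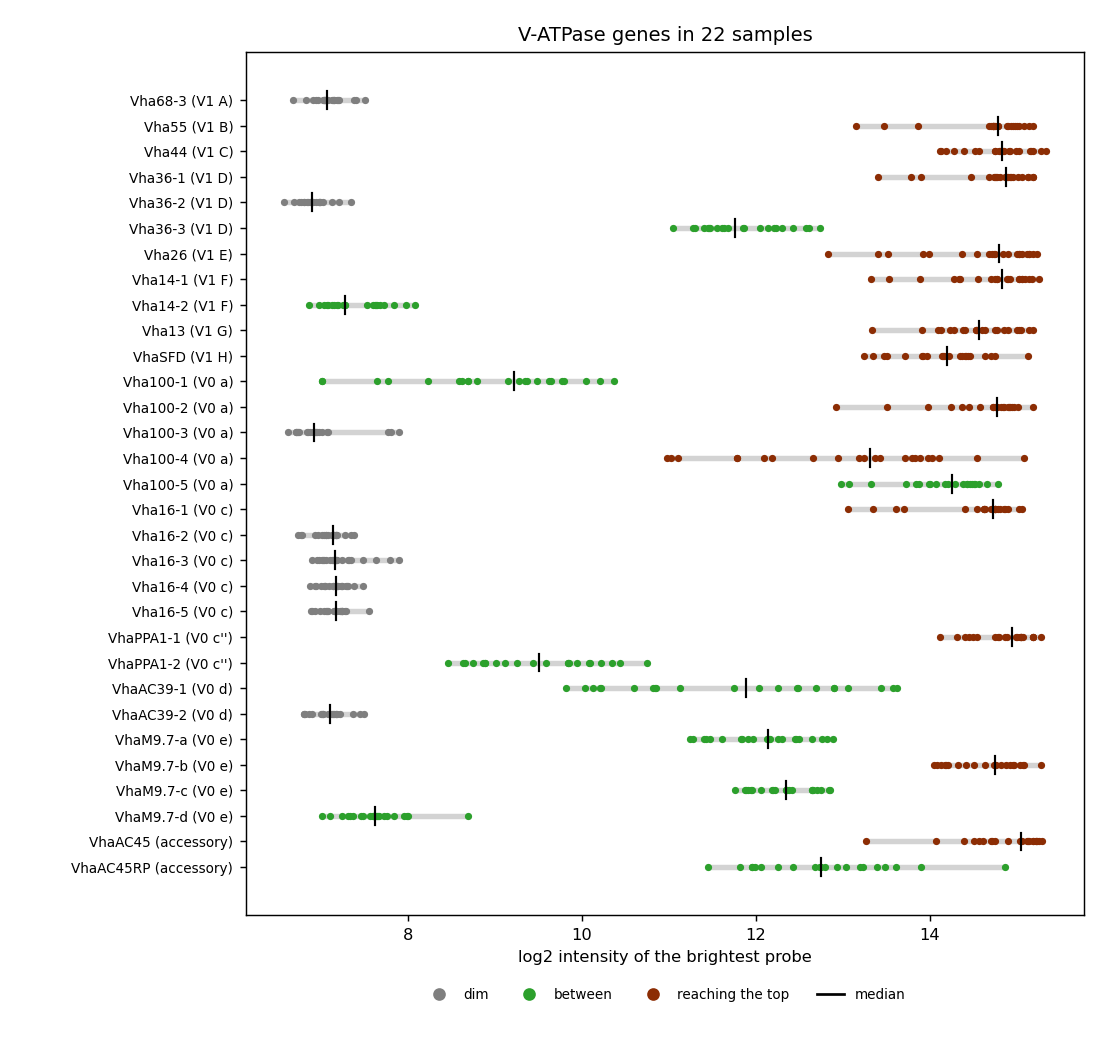
The log2 intensity of the brightest probe of each V-ATPase gene in 22 samples (points), with the range as a grey line and the median as a black tick, ordered by sector and subunit. Colour separates the 8 dim genes, the 13 that reached the top of the scale and the 10 between; levels of different probes are not comparable, and the spread within a row is what can be read.

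In the V-ATPase as a whole, 1 gene passed the test in the comparisons of mutants with wild type, and it was the same gene at both stages. In mz mutant against wild type embryos 1 member was called, as lower, at an adjusted p below 0.01, where 6.42% of all genes passed and 2.62% passed as lower. In mutant against wild type larvae 1 member was again lower, where 2.68% of all genes passed and 1.12% passed as lower. The median log2 difference over the 31 genes was -0.10 in mz mutant embryos, beside -0.052 over all genes, and 0.014 in mutant larvae, beside -0.017. With 1 of 31 genes (3.23%) called, the share was below the background in embryos and close to it in larvae.

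Vha100-4 was the gene lowered in both mutants. It encodes 1 of the 5 a subunits, the large V0 protein that forms the proton path and directs the pump to particular membranes, and in the fly it has been linked to the acid-secreting copper cells of the midgut. Its single probe (locus tag Dmel_CG7678, chromosome 3R) measured 13.80, 14.54, 15.09 and 14.11 in wild type embryos 1, 2, 82 and 83. In mz mutant embryos 1, 4, 87 and 88 it measured 13.43, 10.97, 12.18 and 11.78. All 4 mutant embryos lay below all 4 wild type embryos. The library labelled mz mutant embryo 1 came closest to them, and it also read Manf inside the wild type range on the brighter Manf probe.

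The group means were 14.38 ± 0.56 (SD, n = 4) in wild type and 12.09 ± 1.03 (SD, n = 4) in mz mutant embryos, a 4.89-fold lower level (log2 -2.29, SE 0.40, 95% interval -3.12 to -1.46, limma adjusted p = 7.97e-04). Wild type embryo 82 sat at the top of its scale, and with values at the top set to missing the difference was -2.05. Without the library labelled mz mutant embryo 1 it was -2.74.

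In larvae the groups were tighter. Vha100-4 measured 14.03, 13.71, 13.89 and 13.97 in wild type larvae 1, 2, 63 and 65. It measured 11.02, 11.11, 11.79 and 12.09 in mutant larvae 2, 4, 65 and 66. The highest mutant sample, the library labelled mutant larva 66, was thus well below the lowest wild type sample. The means were 13.90 ± 0.14 (SD, n = 4) and 11.50 ± 0.52 (SD, n = 4), a 5.27-fold lower level in mutants (log2 -2.40, SE 0.40, 95% interval -3.23 to -1.56, limma adjusted p = 9.19e-04). Without the library labelled mutant larva 66 the difference was -2.59. Without all 3 libraries that read Manf inside the wild type range it was -2.84 (limma adjusted p = 1.33e-04). That setting kept only mutant larvae 2 and 4, both low-numbered and labelled with Alexa488. Manf was also higher in high-numbered (13.18 and 13.64) than in low-numbered wild type larvae (11.65 and 11.59). The setting therefore cannot separate the Manf reading of a library from its series or dye.

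The effect of the mutation did not differ detectably between the stages. The interaction was -0.11 (SE 0.56, 95% interval -1.29 to 1.07, limma adjusted p = 0.99), an interval that still allows a difference of more than 1 log2 unit. No V-ATPase gene passed the interaction test by limma, where 1.41% of all genes did, and 0 members had an unadjusted p below 0.05, beside 13.5% of all genes.

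Paternally rescued embryos took a middle place. Their 4 values of Vha100-4 were 13.83, 12.66, 12.94 and 13.37, with a mean of 13.20 ± 0.51 (SD, n = 4). The highest of them overlapped the lowest wild type embryo and the lowest overlapped the highest mz mutant. Against wild type the difference was -1.18 (SE 0.40, limma adjusted p = 0.46) and mz mutants were lower than rescued embryos by -1.11 (SE 0.40, limma adjusted p = 0.0823). Neither passed the threshold, although both intervals lay below 0 (-2.02 to -0.35 and -1.94 to -0.27).

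Overexpressing larvae 2 and 3 measured 13.25 and 13.19, below every wild type larva and above every mutant larva. Against wild type the difference was -0.68 (SE 0.49, 95% interval -1.71 to 0.34, limma adjusted p = 0.576), and mutants were below overexpressing larvae by -1.71 (SE 0.49, limma adjusted p = 0.0321). Between the stages, wild type larvae differed from wild type embryos by -0.48 (SE 0.40, limma adjusted p = 0.39). From high to low the group means were in the order wild type embryos, wild type larvae, overexpressing larvae, rescued embryos, mz mutant embryos and mutant larvae. Of neighbours in that order, none of the 3 pairs tested passed the threshold, while overexpressing larvae against rescued embryos and mz mutant embryos against mutant larvae were not tested.

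**Figure D2:**
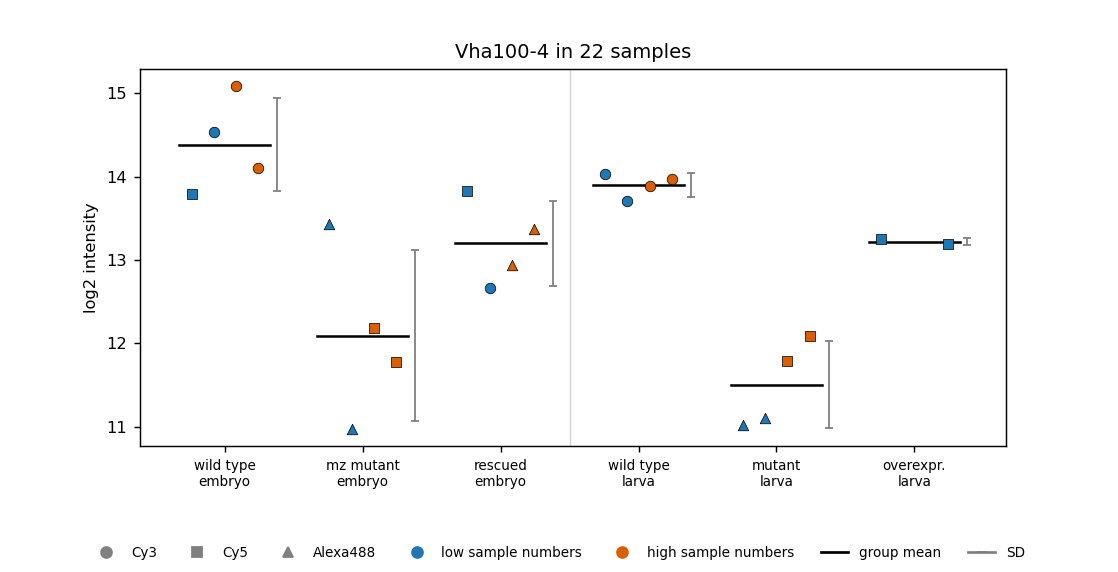
The log2 intensity of Vha100-4 in 22 samples by group. Each point is a sample, its shape the dye and its colour the number series, with the group mean (black line) and SD (grey bar; overexpressing larvae n = 2). All 4 mutant larvae (11.02 to 12.09) lie below all wild type larvae (13.71 to 14.03).

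The difference was also fitted with dye and within each number series. With dye as a covariate Vha100-4 differed by -2.20 in mz mutant embryos (limma adjusted p = 0.0335) and by -2.32 in mutant larvae (limma adjusted p = 0.126). Neither passed the threshold. All wild type larvae and no other larvae carried Cy3, so the larval value rests on the Cy3 effect estimated in embryos and cannot separate dye from genotype. Most wild type embryos and no mz mutant embryo carried Cy3. Among embryos labelled with Cy5 alone, the 1 wild type measured 13.80, the 1 rescued embryo 13.83 and mz mutants 87 and 88 measured 12.18 and 11.78. The wild type and rescued embryo were low-numbered and these mz mutants high-numbered, so series and genotype cannot be told apart among them. Within the low number series the differences were -1.96 in embryos and -2.80 in larvae, and within the high series -2.62 and -1.99, so that mutants were lower in both series at both stages.

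Markers of other tissues moved in the same comparisons. The mean log2 level of 6 midgut markers was 13.21 to 13.68 in wild type larvae, 14.22 to 14.49 in mutant larvae, and 13.91 and 14.12 in overexpressing larvae. All 6 were higher in mutant larvae, and Mal-A1, a maltase, passed the test at 1.37. In embryos the midgut ranges overlapped (13.45 to 14.22 in wild type, 13.35 to 14.53 in mz mutants). The 4 haemocyte markers averaged 9.76 to 10.22 in wild type and 10.41 to 11.17 in mz mutant embryos, with Hml (1.85) and He (2.23) higher and eater (-0.91) lower. In larvae their ranges overlapped (10.32 to 10.55 in wild type, 10.32 to 10.68 in mutants), with Hml higher (1.41) and eater lower (-0.87). No marker of neurons, muscle, fat body, Malpighian tubule or germ line was called in either comparison. Few of them could be read outside neurons (6 of 7 named). Measured were 2 of 6 for muscle, 3 of 4 for fat body, 2 of 4 for Malpighian tubule and 2 of 3 for germ line. Among these, futsch (neurons), Lsp2 and Fbp1 (fat body) and bam (germ line) were dim. The part of these tissues in the fall of Vha100-4 was not tested. In whole animals fewer cells of a type and less RNA per cell cannot be told apart, and the copper cell marker lab had no named probe.

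The 3 genes whose values followed Vha100-4 most closely over the 22 samples were Csas, a CMP-sialic acid synthase, with a Pearson r of 0.93, Polr1E, a subunit of RNA polymerase I, with 0.90, and CG6674 with 0.89. These samples share genotype, dye and number series, so the correlations are descriptive.

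None of the other 4 a subunit genes passed the threshold in either mutant. Vha100-1, known in the fly as the neuronal a subunit of synaptic vesicles, differed by -0.99 (SE 0.48, limma adjusted p = 0.204) in mz mutant embryos and -0.48 (SE 0.48, limma adjusted p = 0.756) in mutant larvae. Vha100-2 differed by -0.10 and 0.15, the dim Vha100-3 by -0.0073 and 0.011, and Vha100-5 by 0.16 and -0.22.

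Vha100-1 varied most with overexpression. It measured 7.01 in both overexpressing larvae, below the limit of the dimmest 33.3% of probes, and 9.34, 9.15, 9.77 and 9.79 in wild type larvae. The value 7.01116 was shared in overexpressing larvae with Vha100-3, VhaAC39-2 and VhaM9.7-d, so values were tied at the low end too. Mutant larvae measured 8.22, 8.79, 9.65 and 9.48. The difference of overexpressing from wild type larvae was -2.50 (SE 0.59, 95% interval -3.73 to -1.27, limma adjusted p = 0.0314), and the gene's other probe gave -2.28. With both overexpressing values in the dim range, its size may be understated. Their SD of 4.2e-04 may also understate the spread on which the SE and p-values rest. Mutants lay above overexpressing larvae by 2.02 (SE 0.59, limma adjusted p = 0.0359). Both missed the threshold of 0.01 in the 22 samples and passed it with larvae fitted apart (adjusted p = 0.00873 and 0.00815). Within the low series alone, to which both overexpressing samples belong, the first difference was -2.24 (adjusted p = 0.0206). The 2 overexpressing samples left out because they stood apart measured 9.22 and 11.09, and with them the difference was -0.93 (adjusted p = 0.305).

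Across the whole pump no member passed in overexpressing against wild type larvae by limma, where 0.711% of all genes did. At an unadjusted p below 0.05 there were 3 members, beside 13.8% of all genes. Nor did any pass in mutant against overexpressing larvae, where 3.77% of all genes did, and 5 members had an unadjusted p below 0.05, beside 23.9% of all genes. With only 2 overexpressing samples, groups were often separate. For 3 members the 2 values lay above every wild type larva and for 8 below, beside 17.7% and 19.3% of all genes.

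In embryos 3 members were lower in mz mutants without overlap of the groups, where 7.29% of all genes were. Besides Vha100-4 these were VhaAC45RP and Vha36-3. VhaAC45RP, a paralogue of the accessory subunit Ac45, measured 13.23, 13.49, 14.86 and 13.61 in wild type embryos. It measured 13.19, 12.79, 12.25 and 11.95 in mz mutants, the first being the library labelled mz mutant embryo 1. The difference was -1.25 (SE 0.34, limma adjusted p = 0.0191), above the threshold of 0.01, and its other probe gave -1.24. Without that library it was -1.47 (limma adjusted p = 0.00628), and without wild type embryo 82 it was -0.90 (limma adjusted p = 0.0765).

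VhaAC45RP was lower in the other comparisons with wild type too, by -0.71 in mutant larvae (limma adjusted p = 0.318), -0.74 in overexpressing larvae (limma adjusted p = 0.455) and -0.53 in rescued embryos (limma adjusted p = 1.00), none past the threshold. Vha36-3, a paralogue of the central stalk subunit D, differed by -0.53 in mz mutant embryos (SE 0.20, limma adjusted p = 0.0932).

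Both Vha100-1 and VhaAC45RP split by number series in embryos. Vha100-1 measured 8.58 and 9.36 in low-numbered wild type embryos against 8.69 and 9.28 in low-numbered mz mutants, a difference of 0.013. In the high series wild type embryos measured 10.04 and 10.21 and mz mutants 8.62 and 7.64, a difference of -1.99 (limma adjusted p = 0.00428). For VhaAC45RP the high series alone gave -2.14 (limma adjusted p = 0.0047) and the low series alone -0.37. High-numbered mz mutants carried Cy5 and low-numbered ones Alexa488, so series and dye cannot be told apart among the mutants. No test of the difference between the series was run.

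The V1 sector showed no call in any comparison of genotypes, where 0.164% to 6.42% of all genes passed. Apart from Vha36-3, its genes reached the top of the scale, were dim, or lay close to the dim limit (Vha14-2, mean 7.40). The absence of calls therefore does not show that the sector was unchanged. Its 11 genes ranged from -0.53 to 0.30 in mz mutant embryos, with a lowest adjusted p of 0.0932, and from -0.42 (Vha44) to 0.56 (VhaSFD) in mutant larvae, with a lowest adjusted p of 0.456. In the V0 sector without Vha100-4, 17 genes ranged from -0.99 to 0.21 in mz mutant embryos and from -0.48 to 0.76 in mutant larvae.

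The spread of values differed with the level. The 8 dim genes differed by at most 0.21 in size between mz mutant and wild type embryos, with a median SE of 0.13. All their values lay in the narrow dim range, so this small SE does not show that changes in them were excluded. For the 13 bright genes the median SE was 0.33, and in genes at the top of the scale tied values could misstate a difference in either direction.

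VhaSFD and Vha16-1 are, with Vha100-4 and Vha100-1, the V-ATPase genes in the study's list of lysosomal genes. VhaSFD differed by 0.27 in mz mutant embryos (95% interval -0.41 to 0.95), 0.56 in mutant larvae (-0.12 to 1.24) and -0.19 in overexpressing larvae (-1.02 to 0.65). Its probes were not in accord, because the dimmest of the 3 gave -0.78 in mz mutant embryos and -1.59 in overexpressing larvae, with an SE of 1.03 and 1.26. Vha16-1 differed by 0.21 (-0.56 to 0.98), -0.0046 (-0.77 to 0.76) and -0.030 (-0.97 to 0.91) in these comparisons, with the top of the scale reached in 3 samples. None of these differences passed the threshold.

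**Figure D3:**
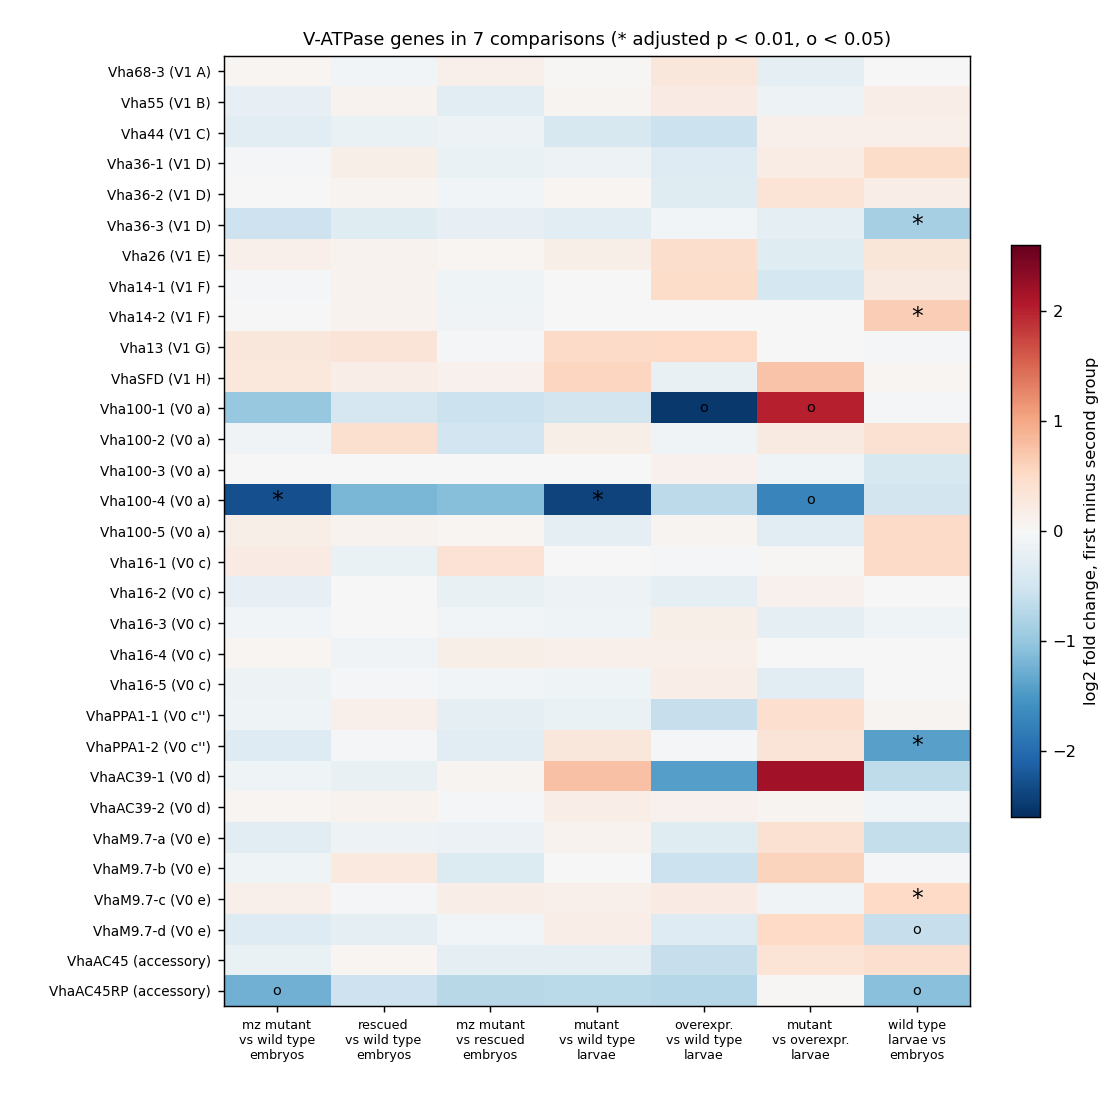
The log2 fold change of each V-ATPase gene (rows, by sector and subunit) in 7 comparisons (columns), first group minus second; an asterisk marks an adjusted p below 0.01 and a circle one below 0.05. Vha100-4 carries the asterisks in the 2 comparisons of mutants with wild type, and 4 other genes carry those in the comparison of wild type stages.

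In paternally rescued embryos no V-ATPase gene passed against wild type by limma, where 0.164% of all genes did, and 1 member had an unadjusted p below 0.05, beside 5.21% of all genes. The 31 differences had a median of 0.0010 and ran from -1.18 (Vha100-4) to 0.41 (Vha100-2). Between mz mutant and rescued embryos none passed either, where 3.99% of all genes did, and 2 members had an unadjusted p below 0.05, beside 24.3% of all genes. Without the library labelled mz mutant embryo 1, Vha100-4 passed in this comparison.

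The stage was the comparison with the most calls in the pump. In wild type larvae against wild type embryos 2 members were higher and 2 lower, together 12.9% of the members, where 24.7% of all genes passed (13.8% higher and 10.9% lower). The 4 were paralogues, and the main genes that reached the top of the scale were not among them. In wild type embryo 83 12 V-ATPase genes were tied at the top, and the bright genes had a median SE of 0.33. Their absence from the calls therefore does not show that they were unchanged between the stages.

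VhaPPA1-2, a paralogue of the c'' proteolipid of the ring, measured 9.85, 10.75, 10.09 and 9.94 in wild type embryos and 8.46, 8.65, 8.86 and 9.004 in wild type larvae. The groups did not overlap, and larvae were 2.66-fold lower (log2 -1.41, SE 0.21, limma adjusted p = 2.97e-05). All 10 larval samples of the 3 genotypes lay between 8.46 and 9.25, below all 12 embryo samples, which lay between 9.44 and 10.75. Its difference between the stages kept its call in every alternative run.

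Vha36-3 fell as well. It measured 12.61, 12.73, 12.29 and 12.23 in wild type embryos and 11.67, 11.85, 11.41 and 11.47 in wild type larvae, a 1.82-fold lower level (log2 -0.87, SE 0.20, limma adjusted p = 0.00229). Without wild type embryo 2 the adjusted p was 0.0107.

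Vha14-2, a paralogue of the central stalk subunit F, rose from 6.98, 7.08, 7.28 and 7.03 in wild type embryos to 7.62, 7.52, 8.08 and 7.72 in wild type larvae (log2 0.64, SE 0.13, limma adjusted p = 5.33e-04). The groups did not overlap, and its other probe gave 0.66. Its embryo values lay in the dim range.

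VhaM9.7-c, a paralogue of the small subunit e, measured 11.87, 11.95, 12.35 and 11.91 in wild type embryos and 12.42, 12.34, 12.66 and 12.70 in wild type larvae (log2 0.51, SE 0.14, limma adjusted p = 0.00949). Wild type embryo 82 overlapped the lowest larva. This call stood close to the threshold and was lost when any of 14 single libraries was left out, with an adjusted p of up to 0.0358. VhaAC45RP (-1.09, limma adjusted p = 0.0177) and VhaM9.7-d (-0.60, limma adjusted p = 0.0194) had adjusted p-values between 0.01 and 0.05.

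**Figure D4:**
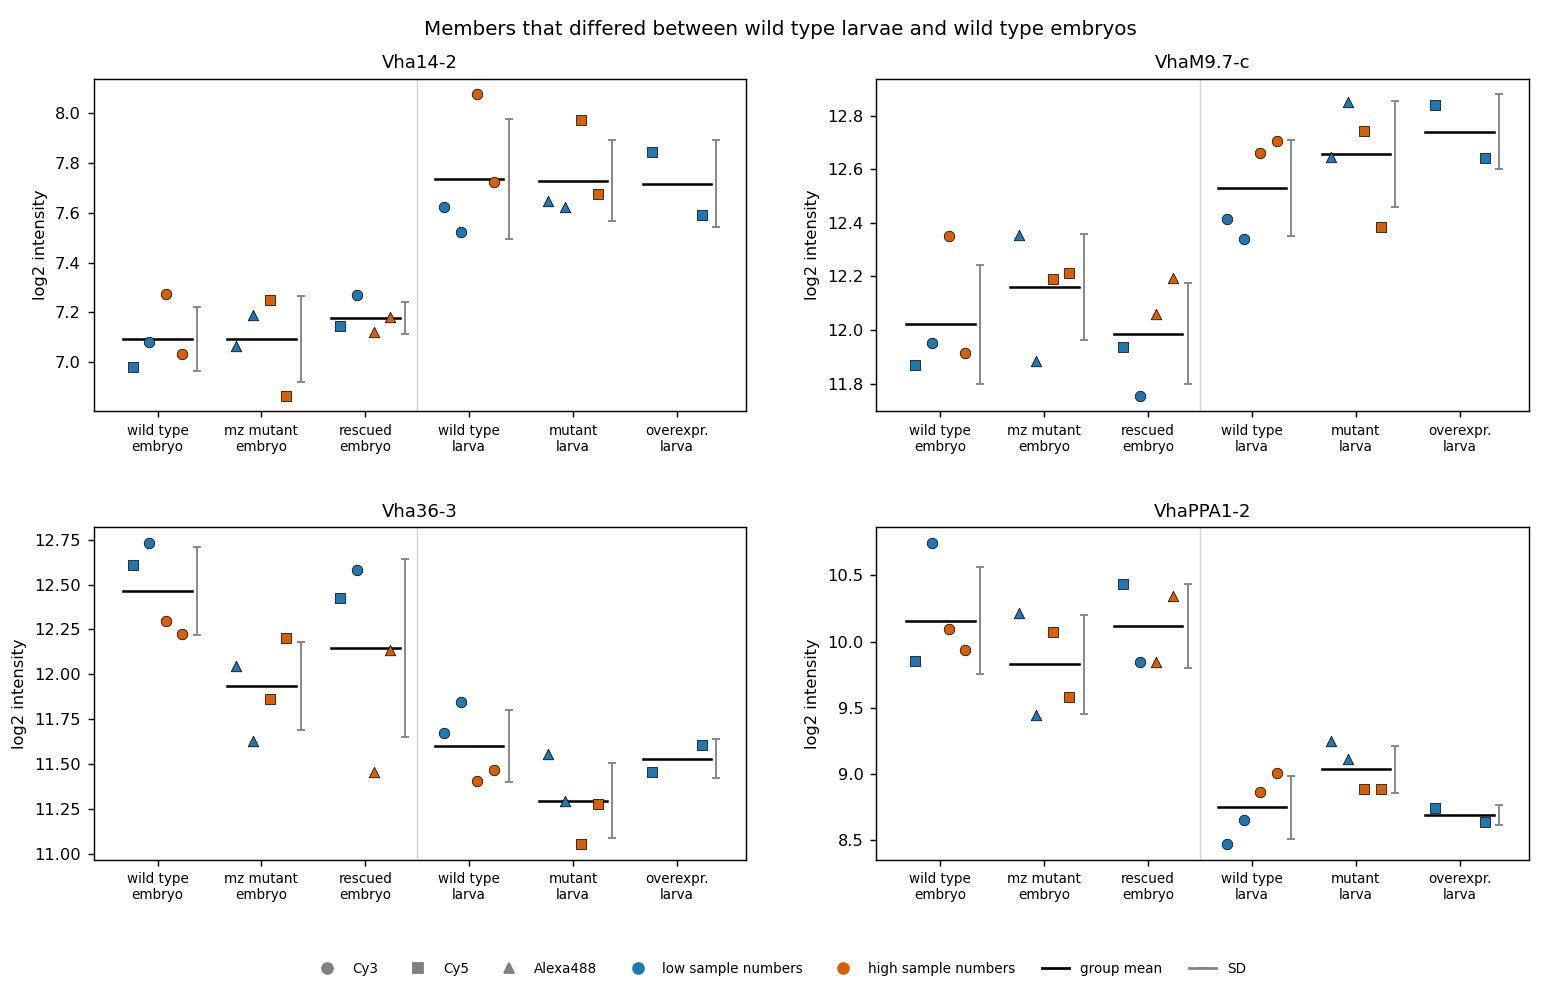
The log2 intensity of the 4 V-ATPase genes called between wild type larvae and wild type embryos, in 22 samples by group; symbols give dye, colours the number series, lines the mean and bars the SD (overexpressing larvae n = 2). Larvae of each genotype lie above embryos for Vha14-2 and below them for VhaPPA1-2.

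The 3 genes most like VhaPPA1-2 over the 22 samples were CG14490, CG10300 and CG6472, each with a Pearson r of 0.95. Vha36-3 was most like gce, a juvenile hormone receptor, with 0.94, Vha14-2 most like beg with 0.94, and VhaM9.7-c most like Tsf1, a transferrin, with 0.87. Stage is shared by all of these.

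Members also varied between the low and high sample numbers within groups, which the labels do not explain. VhaAC39-1, the d subunit that couples the central stalk to the ring, measured 10.81 and 11.13 in low-numbered and 12.90 and 13.44 in high-numbered wild type embryos. In mutant larvae it measured 10.60 and 10.85 against 13.62 and 13.58. Over the 22 samples the low series differed from the high series by -2.09 (SE 0.23, limma adjusted p = 7.67e-06). In all, 3 members (9.68%, beside 18.7% of all genes) were called between the series, VhaM9.7-a (-0.80) and the dim VhaAC39-2 (0.29) being the others.

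This bears on overexpression, since both samples kept were low-numbered. VhaAC39-1 measured 9.81 and 10.13 in overexpressing larvae, 10.21 and 10.04 in low-numbered wild type larvae and 12.48 and 12.89 in high-numbered ones. The difference of -1.43 from all wild type larvae (SE 1.03, limma adjusted p = 0.58) is taken over both series, and the low-numbered wild type larvae overlapped the overexpressing ones.

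**Figure D5:**
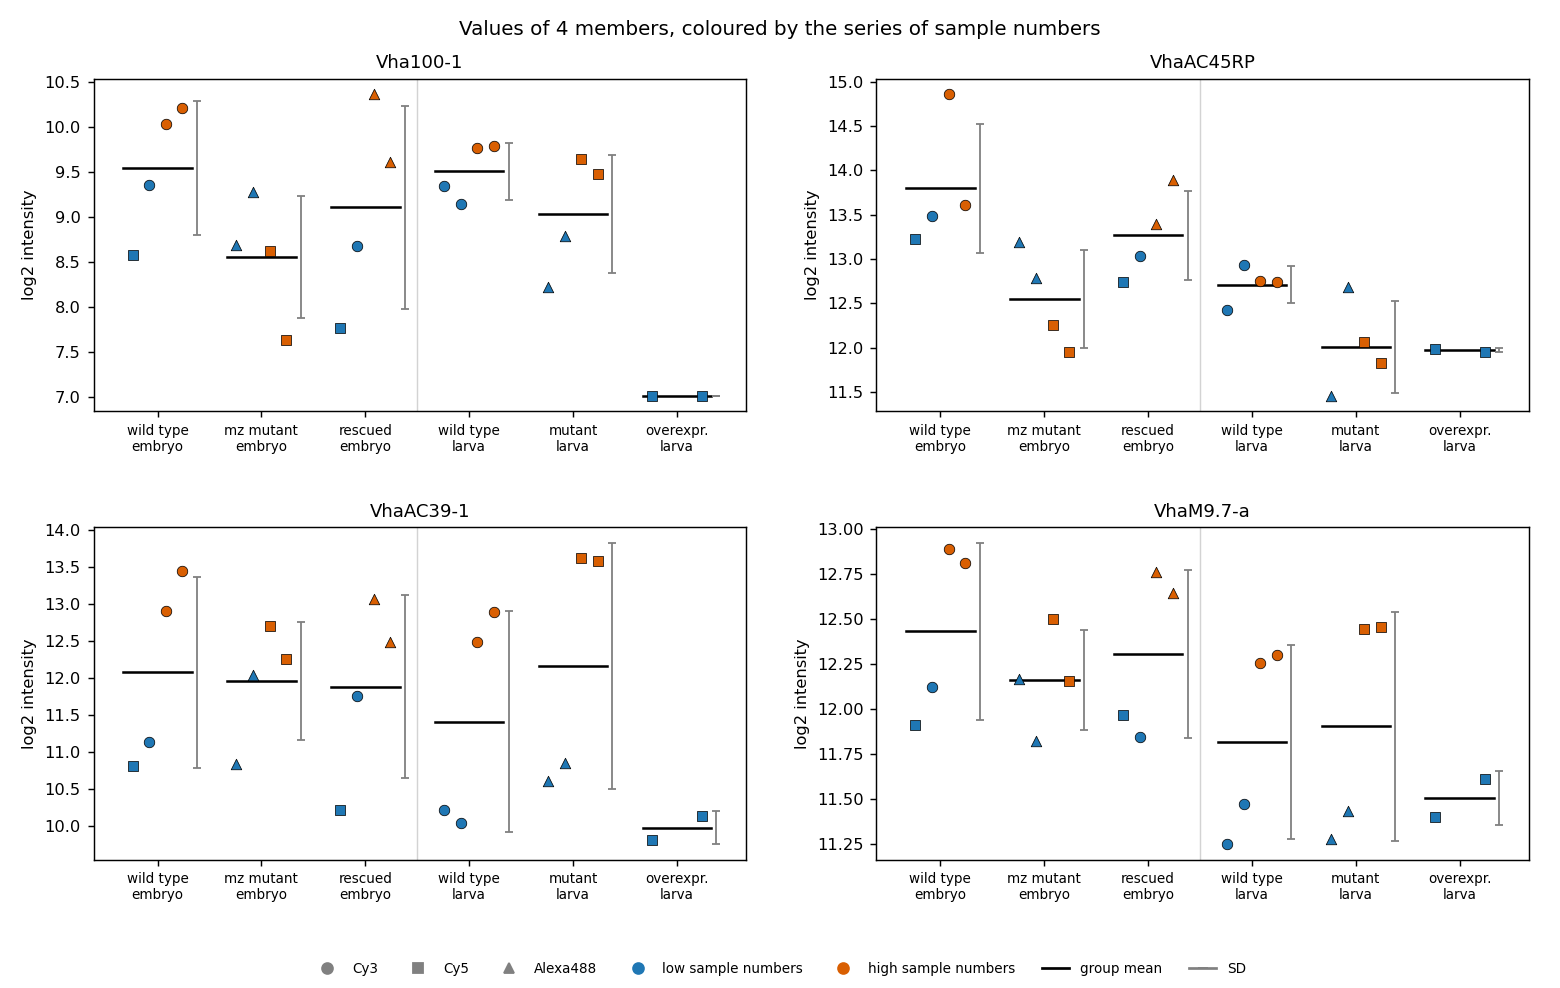
The log2 intensity of Vha100-1, VhaAC45RP, VhaAC39-1 and VhaM9.7-a in 22 samples by group, coloured by the series of sample numbers, with dye as symbol, the mean as line and the SD as bar (overexpressing larvae n = 2). High-numbered samples lie above low-numbered ones of the same group for VhaAC39-1, and both overexpressing larvae are low-numbered.

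Genes that work beside the pump were read from lists of related genes. Of 14 genes of V-ATPase assembly and TORC1 signalling at the lysosome 10 were measured. None was called between genotypes, where 0.164% to 6.42% of all genes were. Their median was -0.22 in mz mutant embryos and 0.11 in mutant larvae, beside -0.052 and -0.017 over all genes. Mitf, the transcription factor known in flies to control V-ATPase and lysosomal genes, differed by -0.37 in mz mutant embryos (limma adjusted p = 0.141) and was lower in wild type larvae than embryos (-0.57, limma adjusted p = 0.00872).

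Of 25 lysosomal hydrolases and membrane proteins 21 were measured. In mz mutant embryos 1 rose and 2 fell: spin, a lysosomal efflux transporter (1.35), Ect3, a beta-galactosidase (-2.94), and Cln3, a lysosomal membrane protein (-1.27). In mutant larvae 3 rose, the alpha-mannosidases LManIII (1.45) and LManIV (1.74) and the beta-galactosidase Gal (1.13), and Ect3 fell (-2.20). Of all genes 6.42% were called in mz mutant embryos and 2.68% in mutant larvae. Ect3 was thus lower in both mutants, as Vha100-4 was. Against wild type, Gal was higher in rescued embryos (0.90) and overexpressing larvae (1.11) as well, where 0.164% and 0.711% of all genes were called. The list's median was -0.13 in mz mutant embryos and 0.26 in mutant larvae, beside -0.052 and -0.017 over all genes.

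Of 13 transporters and carbonic anhydrases that act with the pump in ion transport, ClC-b, a chloride channel family member of endosomal and lysosomal membranes, rose in mz mutant embryos against wild type (1.24, limma adjusted p = 0.00154) and against rescued embryos (1.11, limma adjusted p = 0.00522). In these embryo comparisons 6.42% and 3.99% of all genes were called. None of the list was called in mutant larvae, where 2.68% of all genes were. The list's median was -0.10 in mz mutant embryos and 0.12 in mutant larvae, beside -0.052 and -0.017 over all genes.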

How the data were processed

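RNA of whole embryos and larvae was labelled with Cy3, Cy5 or Alexa488 and hybridised to Agilent arrays. Per the labels and methods, the authors scanned the arrays, took median spot intensities in GenePix and preprocessed them with limma. The deposited values are log2 intensities of 45220 probes per sample; background correction and normalization are not given in the sources used here. The number of arrays limits the precision, and no read depth applies. Probes were named from the platform table (29872 with 1 gene, 15348 with none), updated by gene ID, which changed 0 symbols.

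A linear model with 6 groups was fitted to all probes in 22 samples (limma 3.58.1, R 4.3.3). Each gene was read by its brightest probe, with p-values adjusted over 12799 genes (Benjamini-Hochberg, called below 0.01). All 31 Vha genes with a named probe were accounted for, and folds given for called members and those of the study's lysosome list; further members near the threshold or split by series were named after their values were seen. Gene lists and members were chosen with earlier results of these data known. The labels give 4 samples a group and the methods 3 independent sets, and nothing says the 4 came from separate cultures, so the p-values cover only sample-to-sample spread, which may be technical. The fit was tested on simulated data with known changes. Alternatives were all 24 samples, series, dye and sample number as terms, each series alone, other scaling, probe choice, filter and threshold, stages apart, and each sample left out; 3 more, without values at the top and without 2 or 3 mutant libraries that read Manf inside the wild type range, were chosen after seeing the data.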

Additional observations from a re-analysis of the deposited data

Results flagged for a closer look

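Of 155 values of spread, 1 for each V-ATPase gene in each group of 4 samples, 13 had a sample far from the other 3; chance gives about 1 in 20. Of these, 5 were wild type embryo 82, which measured 12.92 for Vha100-2, 13.32 for Vha14-1 and 13.05 for Vha16-1, all below its group, 6.82 for the dim Vha68-3, and 12.35 for VhaM9.7-c, above its group. Mz mutant embryo 4 measured 13.79 for Vha36-1 and 13.15 for Vha55, below its group.

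The other 6 lay at or near the dim range. Wild type embryo 1 measured 7.89 for Vha100-3 and 6.69 for Vha36-2. Mutant larva 4 measured 6.92 for Vha100-3, and mutant larva 65 measured 7.97 for Vha14-2 and 7.30 for Vha16-3. Mz mutant embryo 88 measured 7.02 for VhaAC39-2.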

How the results depend on the processing

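Of 116 counts of V-ATPase genes called under settings other than leaving out 1 sample, 91 stayed within 1.5 times the count given above. Sample medians were already nearly equal (9.146 to 9.149 in the 22 samples), so the setting with equal medians could change little. The same may hold for quantile normalization, since the highest value of a sample followed its number of tied probes. The call of Vha100-4 was lost in both mutants with all 24 samples (0 and 0 genes called), with dye as a covariate (0 and 0) and in the low series alone (0 and 0), in mutant larvae in the high series alone (0), and in mz mutant embryos with embryos fitted apart (0, adjusted p = 0.0126). In mz mutant embryos 3 genes were called in the high series alone, and 2 at a threshold of 0.05 (beside 13.6% of all genes), with the mean of a gene's probes, or without the 2 or the 3 mutant libraries that read Manf inside the wild type range. Between mz mutant and rescued embryos 1 was called in the high series alone and 1 without those 2 or 3 libraries, which also gave 1 between mutant and overexpressing larvae. For overexpressing against wild type larvae 1 was called at 0.05 (beside 2.18% of all genes) and 1 with larvae apart, and for mutant against overexpressing larvae 2 (beside 9.04%) and 2. Between wild type stages the 4 calls became 1 with all 24 samples, 2 in the low series and 1 in the high series. Apart from the threshold of 0.05, shares of all genes under these settings are not given here, so these counts stand without a background. The causes were not tested, and fewer samples enter the fits by series or stage.

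Leaving out 1 sample gave 1 to 2 calls in mz mutant against wild type embryos, 0 to 1 against rescued embryos, 1 to 1 in mutant larvae, 0 to 1 in mutant against overexpressing larvae, and 2 to 4 between wild type stages. Each of the other 3 comparisons stayed at 0 calls. The call of Vha100-4 against wild type held in all 22 cases at both stages, from -2.74 to -1.92 in embryos and -2.59 to -2.24 in larvae.

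Signs turned only for differences not called. Vha100-1 in mz mutant embryos was 0.013 in the low series. Vha16-1 there was -0.42 in the low series and -0.073 with dye as a covariate, and in rescued embryos 0.082 in the high series and 0.17 with the mean of probes. In mutant larvae Vha16-1 was 0.21 in the low series, 0.0010 after quantile normalization, 0.18 with the mean of probes and 0.046 without top values, and in overexpressing larvae 0.23, 0.25 and 0.063 in the low series, with the mean and without top values. VhaSFD in mz mutant embryos was -0.061 with the mean of probes. Leaving out 1 sample took Vha16-1 from -0.20 to 0.47 in mz mutant embryos, -0.57 to 0.088 in rescued embryos, -0.13 to 0.089 in mutant larvae and -0.16 to 0.063 in overexpressing larvae. It took VhaSFD from -0.071 to 0.43 in rescued embryos and -0.51 to 0.14 in overexpressing larvae, and Vha100-1 from -0.86 to 0.0078 in rescued embryos.

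Samples with 1 number share no stated origin, and the 8 pairs of samples with the same number had correlations of deviations from -0.23 to 0.49. With the number as a replicate block (consensus correlation 0.32) Vha100-4 differed by -2.13 and -2.41, both called, and the counts of calls stayed within 1.5 times; VhaM9.7-c was 0.49 (adjusted p = 0.0119). Stage comparisons could not be fitted with stages apart. Values tied at the top and values in the dim range limit what could be detected.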
